A study of Mus musculus with 12 samples.

Results

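Peroxisomes shorten fatty acids that mitochondria handle poorly: very long-chain, dicarboxylic and branched-chain acyl-CoAs and the side chain of bile acid precursors. Acyl-CoAs enter through ABC transporters of the membrane, are oxidised by an acyl-CoA oxidase, hydrated and oxidised again by a bifunctional enzyme, and cleaved by a thiolase. The shortened chains leave as carnitine esters for the mitochondria. In rodent liver many of these genes are known targets of the fatty acid receptor PPARα, which acts as a dimer with RXR.

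The 9 genes described here stand for these steps. They were named for their place in the pathway, with earlier results of these data known, and no measured value enters the rule that picks them: the transporters Abcd2 and Abcd3, the oxidase Acox2, the bifunctional enzymes Ehhadh and Hsd17b4, the thiolases Acaa1a and Acaa1b, the carnitine transferase Crot, and Pex11a, which drives elongation and division of peroxisomes. All 9 were among the 48526 genes of the deposited CPM table (counts scaled by the total of each library) and all 9 passed the low-count filter that left 11968 genes for testing. RNA was sequenced from the livers of 12 C57BL/6J mice, 8 to 10 weeks old when the diets began, with 3 female and 3 male livers on a chow diet and 3 of each sex on the same chow with simvastatin for 4 weeks, to ask whether the hepatic response to a statin differs by sex. Simvastatin inhibits HMG-CoA reductase, the rate-limiting enzyme of cholesterol synthesis. The dose was 0.1 g per kg. The labels refer it to body weight, and the methods text refers it to food. The labels list no transgene or deletion, and nothing in the sources used here gave the hour of collection or whether these mice were fasted.

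Each library held between 46066381 and 60419223 counts, so that 3 counts came to between 0.0497 and 0.0651 CPM, far below every value given here. Levels of single genes below are CPM after TMM normalisation, which scales libraries so that most genes do not shift. Summed cell type markers are in the deposited CPM throughout. Tests were edgeR quasi-likelihood tests over all 11968 genes, and a gene was called where its p-value after Benjamini-Hochberg adjustment (adjusted p) was under 0.05. In the deposited CPM, hepatocyte markers summed to between 72800 and 141400 CPM in every liver, and albumin alone took between 5.71% and 12.7% of the counts. Summed markers of cholangiocytes, Kupffer cells, endothelial cells, stellate cells and leukocytes were at most 49.2, 723, 262, 340 and 28.2 CPM, and none of these markers was at 0 in all livers of a group. In whole liver, fewer cells of a type and less RNA per cell cannot be told apart. The labels do not say whether livers came from separate cages or litters, so p-values measure the spread between these livers.

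The first comparison asked what simvastatin did to the pathway in females. Of the 9 genes, 1 was called: Pex11a rose 1.98-fold. This compares with 0.0836% of all genes called higher. All 9 estimates were above 0, with a median log2 fold change of 0.63, where the median of all genes was 0.01 and 52.8% of them were above 0. At an unadjusted p under 0.05, which is given only as a description, 7 of 9 genes were higher on statin (5.93% of all genes were), and in 5 of 9 the 3 statin livers all lay above the 3 chow livers (6.03% of all genes).

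Pex11a (ENSMUSG00000030545.9, GRCm38 chr7:79735957-79743131, minus strand) encodes the inducible member of the PEX11 membrane proteins that tubulate peroxisomes before they divide. Its level in the 3 female chow livers was 76.0, 67.8 and 69.7 CPM. In the 3 female statin livers it was 156, 113 and 154 CPM. The lowest statin liver stood clear of the highest chow liver, and the means were 71.2 ± 4.31 and 141 ± 24.5 (SD, n = 3). The log2 fold change was 0.99 (SE 0.16, edgeR adjusted p = 0.0382). Under DESeq2, which called 270 of all 11968 genes in this comparison against 12 in edgeR, the adjusted p was 3.29e-06. In edgeR the call was lost with library size alone (adjusted p = 0.0858), a filter at 10 CPM (0.0624), the 2 groups fitted alone (0.324) and replicate number as a block (0.155). It held without female statin liver 1 (adjusted p = 0.0435) or 2 (0.0150), and without any 1 of the other 10 livers, male livers included, the adjusted p was between 0.0529 and 0.244.

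Both transporters had estimates above 0, at different levels. ABCD2 carries very long-chain and polyunsaturated acyl-CoAs into the peroxisome, and ABCD3 (PMP70), one of the most abundant peroxisomal membrane proteins, carries long-chain, branched-chain and dicarboxylic acyl-CoAs and bile acid precursors. Abcd2 (ENSMUSG00000055782.8, chr15:91145871-91191799, minus strand) was at 44.5, 62.2 and 63.3 CPM in female chow livers and at 107, 117 and 95.1 CPM in female statin livers. All 3 statin livers were higher, with a log2 fold change of 0.91 (SE 0.19) that missed the threshold in edgeR (adjusted p = 0.0999). Abcd3 (ENSMUSG00000028127.10, chr3:121758774-121815302, minus strand) was at 514, 419 and 536 CPM on chow and at 762, 688 and 689 CPM on statin. Here too the groups did not overlap, and the log2 fold change was 0.54 (SE 0.14, edgeR adjusted p = 0.178). DESeq2 called both, with adjusted p of 0.00222 for Abcd2 and 0.00944 for Abcd3, among 270 of all 11968 genes that it called.

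The enzymes of the first and middle steps had the 3 smallest estimates of the 9. Acox2 (ENSMUSG00000021751.13, chr14:8225511-8259353, minus strand), the oxidase of bile acid precursors and branched chains, was at 136, 82.0 and 111 CPM on chow and at 72.9, 118 and 139 CPM on statin. The 2 ranges covered each other almost fully, and the log2 fold change of 0.01 had a 95% interval from -0.53 to 0.54, wide enough to hold a change in either direction. Ehhadh (ENSMUSG00000022853.6, chr16:21761287-21787807, minus strand) encodes the L-bifunctional protein, which serves dicarboxylic acids. It was at 296, 244 and 323 CPM on chow and at 441, 387 and 320 CPM on statin, overlapping by 1 statin liver just below the highest chow liver (log2 fold change 0.41, SE 0.15, edgeR adjusted p = 0.329). Hsd17b4 (ENSMUSG00000024507.6) encodes the D-bifunctional protein, which serves branched chains and bile acid precursors. It was at 295, 186 and 275 CPM on chow and at 235, 347 and 400 CPM on statin, again with overlap (log2 fold change 0.38, SE 0.26, edgeR adjusted p = 0.722). It was 0.20 without female chow liver 2, 0.22 without female statin liver 3 and 0.57 without female statin liver 1 (adjusted p = 0.341).

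The thiolases, which cleave acetyl-CoA from the chain, are a mouse pair on chromosome 9 whose reads can be confused, so their sequences are shown. Their annotated coding sequences (GENCODE transcripts Acaa1a-201 and Acaa1b-201, GRCm38) were both 1275 bases long and 96.5% identical, with 1231 of 1275 aligned bases the same and no gap. The longest stretch without a difference ran for 327 bases. Below is the window of 60 coding bases, positions 259 to 318 from the start codon, that held the most differences, 11, with the differing bases in capitals.
Acaa1a: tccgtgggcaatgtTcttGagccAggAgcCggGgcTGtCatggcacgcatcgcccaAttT
Acaa1b: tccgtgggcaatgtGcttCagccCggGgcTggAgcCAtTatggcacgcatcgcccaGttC
Over the whole annotated transcripts, 30.5% of the 50-base windows of Acaa1b also occurred in Acaa1a, and 12.9% of those of Acaa1a occurred in another gene, nearly always Acaa1b. For the other 7 genes the share was between 0% and 2.02%. How the counting treated reads that matched both thiolases was not stated, so the split between them is uncertain.

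Acaa1b (ENSMUSG00000010651.4, chr9:119148023-119157093, minus strand) was at 228, 178 and 327 CPM in female chow livers and at 496, 446 and 574 CPM in female statin livers. Every statin liver was higher, with means of 244 ± 76.2 and 505 ± 64.2 (SD, n = 3) and a log2 fold change of 1.05 (SE 0.27, edgeR adjusted p = 0.174; DESeq2 0.0125). Acaa1a (ENSMUSG00000036138.16, chr9:119339676-119350299, plus strand) was at 113, 123 and 146 CPM on chow and at 196, 137 and 257 CPM on statin. Statin liver 2 lay within the chow range, and the log2 fold change was 0.63 (SE 0.19, edgeR adjusted p = 0.244). Without that liver Acaa1a was called, at a log2 fold change of 0.83 (adjusted p = 0.0375), and without statin liver 3 it was at 0.40 (adjusted p = 0.678).

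Crot (ENSMUSG00000003623.4, chr5:8966033-8997324, minus strand), whose product hands shortened chains to carnitine for export, had the largest estimate of the 9 and the widest spread. It was at 205, 225 and 243 CPM on chow and at 487, 284 and 828 CPM on statin. The statin livers were all higher but spanned almost a 3-fold range, with a mean of 533 ± 275 (SD, n = 3) against 224 ± 18.8. The log2 fold change was 1.25 (SE 0.30, edgeR adjusted p = 0.129; DESeq2 0.00383). It ran from 0.79 without female statin liver 3 to 1.55 without female statin liver 2, and it was called in the latter case (adjusted p = 0.0181).

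**Figure D1:**
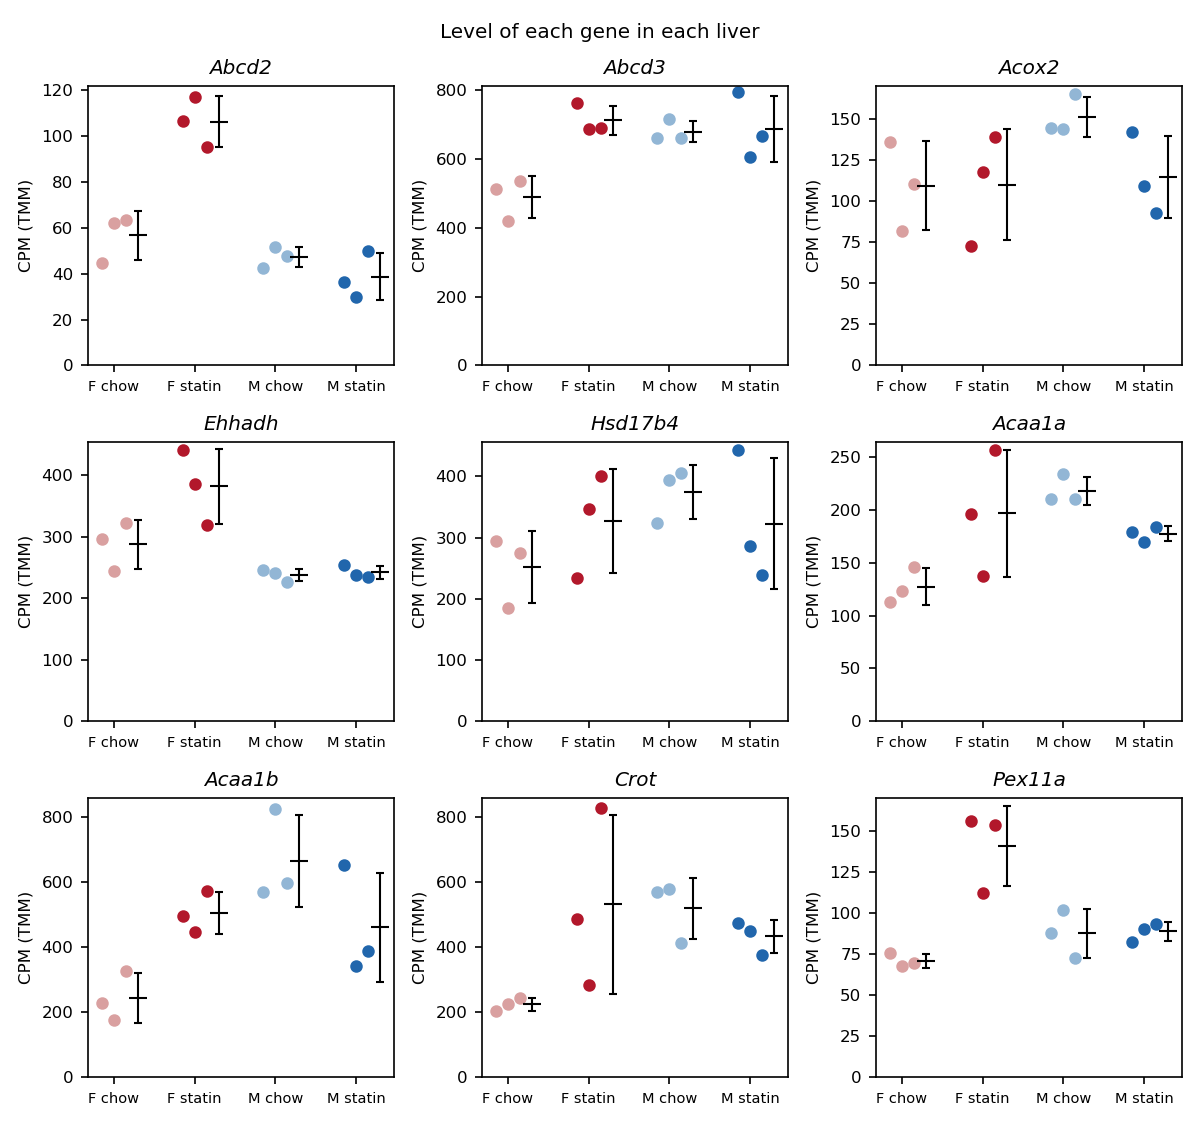
Level of each of the 9 genes (CPM after TMM, linear axes from 0) in each of the 12 livers, by sex and diet. Points are livers and the black bars are the mean ± SD of 3 livers. In Abcd2, Abcd3, Acaa1b, Crot and Pex11a the 3 female statin livers (F statin) all lie above the 3 female chow livers.

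In males the same comparison gave no call among the 9 genes, as among all genes (0.00% called). None of the 9 reached an unadjusted p under 0.05 either, where 1.96% of all genes did, and DESeq2 called 0 of the 9 and 4 genes in all. The estimates were above 0 for 3 genes and below 0 for 6, with a median log2 fold change of -0.26 against 0.00 for all genes. Without 1 liver the median ran from -0.31 (male chow 1) to -0.14 (male statin 2), and none of the 9 was above 0 without male chow liver 3. In Acaa1a and Acox2 the 3 statin livers lay below the 3 chow livers (4.30% of all genes).

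Pex11a was at 88.2, 102 and 72.9 CPM in male chow livers and at 82.6, 90.6 and 93.8 CPM in male statin livers. The statin livers fell inside the chow range, and the log2 fold change of 0.02 had a 95% interval from -0.32 to 0.36. Abcd3 was at 662, 715 and 661 CPM on chow and at 793, 604 and 666 CPM on statin, with a log2 fold change of 0.02 (95% interval -0.29 to 0.33). Ehhadh varied little among males, at 246, 242 and 226 CPM on chow and at 254, 238 and 235 CPM on statin. Its log2 fold change was 0.03 (95% interval -0.29 to 0.34).

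The thiolases had estimates below 0 in males. Acaa1b was at 571, 827 and 599 CPM on chow and at 655, 343 and 388 CPM on statin. Statin liver 1 lay within the chow range, and the log2 fold change was -0.53 (SE 0.27, unadjusted p = 0.0764 and adjusted p = 0.9998 in edgeR). Without that liver it was -0.86 (unadjusted p = 0.00562, adjusted p = 0.730). It was -0.34 without chow liver 2 (unadjusted p = 0.274) and -0.35 without statin liver 2 (unadjusted p = 0.256). Acaa1a was at 210, 233 and 210 CPM on chow and at 179, 170 and 183 CPM on statin. The statin livers were all lower, by a log2 fold change of -0.30 (SE 0.19), and the edgeR adjusted p was 0.9998.

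The other 4 genes also had estimates below 0 in males without a call. Abcd2 was at 42.7, 51.7 and 47.6 CPM on chow and at 36.6, 29.7 and 49.8 CPM on statin (log2 fold change -0.29, SE 0.19). It was -0.52 without male statin liver 3 (unadjusted p = 0.0157, adjusted p = 0.9998) and -0.13 without male statin liver 2. Crot was at 568, 578 and 412 CPM on chow and at 474, 450 and 376 CPM on statin (-0.26, SE 0.30). In both the groups overlapped. Acox2 was at 145, 144 and 166 CPM on chow and at 142, 109 and 92.8 CPM on statin (-0.40, SE 0.24), and Hsd17b4 at 324, 395 and 406 CPM on chow and at 443, 286 and 239 CPM on statin (-0.22, SE 0.26). With 1 male liver left out, Crot ranged from -0.40 (without chow 3) to -0.17 (without statin 3) and Acox2 from -0.58 (without statin 1) to -0.27 (without statin 3). Hsd17b4 ranged from -0.51 (without statin 1) to -0.04 (without statin 3). Its male statin livers spread more widely than the chow livers, above and below them.

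**Figure D2:**
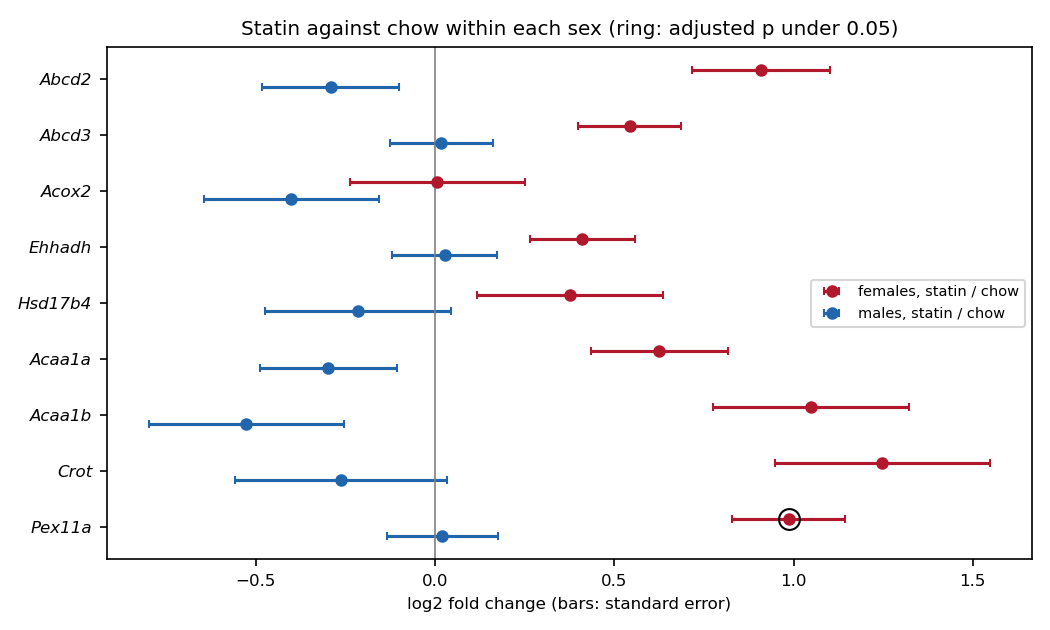
Log2 fold change of statin over chow (horizontal axis) for each of the 9 genes, in females (red) and males (blue), with bars for the standard error and n = 3 livers per group. A ring marks the 1 call, Pex11a in females at 0.99, and the female estimate lies to the right of the male one for all 9 genes.

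Whether the sexes differed in their response was tested as the interaction of sex and statin, the female minus the male log2 fold change. In edgeR none of the 9 genes passed (0.00% of all genes did, with a lowest adjusted p of 0.0997). All 9 differences were above 0, with a median of 0.92 against 0.01 for all genes, and 6 of 9 had an unadjusted p under 0.05 (4.62% of all genes did with a difference above 0). The largest were Acaa1b at 1.58 (SE 0.39, edgeR adjusted p = 0.294) and Crot at 1.51 (SE 0.42, adjusted p = 0.319). Abcd2 followed at 1.20 (SE 0.27, adjusted p = 0.265), Pex11a at 0.97 (SE 0.22, adjusted p = 0.265), Acaa1a at 0.92 (SE 0.27, adjusted p = 0.353) and Abcd3 at 0.53 (SE 0.20, adjusted p = 0.502). The 95% intervals of these 6 lay above 0, and those of Hsd17b4 (0.59), Acox2 (0.41) and Ehhadh (0.38) included 0. DESeq2 called 4 of them, and 122 of all 11968 genes. These were Abcd2, Acaa1b and Pex11a each at an adjusted p of 0.0150 and Crot at 0.0404, with differences between 0.95 and 1.56.

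On chow, the comparison of females with males showed lower levels in females at the thiolase and export steps. Of the 9 genes 3 were called, all lower in females, where 4.49% of all genes were called lower. Acaa1b was at 244 ± 76.2 CPM in females and 665 ± 140 CPM in males (SD, n = 3), a log2 fold change of -1.45 (SE 0.28, edgeR adjusted p = 0.00600). Crot was at 224 ± 18.8 and 520 ± 93.2 CPM, a log2 fold change of -1.21 (SE 0.30, adjusted p = 0.0235). Acaa1a was at 127 ± 17.1 and 218 ± 13.3 CPM, a log2 fold change of -0.77 (SE 0.19, adjusted p = 0.0241). Acaa1b was called without any 1 of the 12 livers. Crot was not called without female chow liver 1, 2 or 3 (adjusted p = 0.0793, 0.0752 and 0.0522) or male chow liver 1 or 2 (0.0805 and 0.0736). Acaa1a was not called without female chow liver 1 or 2 (0.0825 and 0.0792) or male chow liver 1, 2 or 3 (0.0637, 0.0776 and 0.0622).

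For Abcd3, Acox2 and Hsd17b4 the 3 female chow livers also lay below the 3 male chow livers, which made 6 of 9 genes without overlap, against 19.1% of all genes. None of these 3 was called. Their log2 fold changes were -0.47 (SE 0.14, edgeR adjusted p = 0.0560), -0.47 (SE 0.24, adjusted p = 0.264) and -0.57 (SE 0.26, adjusted p = 0.196). Abcd3 was called in DESeq2 (adjusted p = 0.00750), with library size alone (0.0417) and with the 2 groups alone (0.0379), and in edgeR without female statin liver 1, 2 or 3 (0.0464, 0.0479 and 0.0480) or male statin liver 1 (0.03997). At an unadjusted p under 0.05 there were 5 of 9 genes, all lower in females, where 11.6% of all genes were. Pex11a was at -0.30, and Abcd2 and Ehhadh were the 2 genes with estimates above 0, at 0.26 and 0.27, with overlapping livers in all 3.

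On statin, the genes that separated the sexes were 3 others, all higher in females, where 4.38% of all genes were called higher. Abcd2 was at 106 ± 11.1 CPM in females and 38.7 ± 10.2 CPM in males, a log2 fold change of 1.46 (SE 0.19, edgeR adjusted p = 0.000704). It was called without any 1 of the 12 livers. Ehhadh was at 383 ± 60.9 and 242 ± 10.5 CPM, a log2 fold change of 0.66 (SE 0.15, adjusted p = 0.0192). Pex11a was at 141 ± 24.5 and 89.0 ± 5.74 CPM, also a log2 fold change of 0.66 (SE 0.16, adjusted p = 0.0253). In all 3 genes the female livers lay above the male livers (11.1% of all genes), and the same 3 had an unadjusted p under 0.05 (12.2% of all genes, counting those higher in females).

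The calls of Ehhadh and Pex11a on statin were less stable than that of Abcd2. Ehhadh was not called without female statin liver 1 or 2 (edgeR adjusted p = 0.0614 and 0.0512) or male statin liver 2 or 3 (0.0822 and 0.0706). Pex11a was not called without female statin liver 1 or 3 (0.0715 and 0.0703) or male statin liver 1, 2 or 3 (0.0775, 0.0829 and 0.0594). Over 19 other settings of the fit, Ehhadh was called in 13 and Pex11a in 11, with a highest adjusted p of 0.124 and 0.117. Neither was called with the 2 groups alone, nor Pex11a with replicate number as a block. Acaa1b and Acaa1a, called on chow, had log2 fold changes of 0.13 (95% interval -0.46 to 0.72) and 0.15 (-0.27 to 0.57) on statin, and Crot 0.30 (-0.35 to 0.94). Abcd3, Hsd17b4 and Acox2 were at 0.05, 0.02 and -0.06. These comparisons use the same female and male livers as the statin comparisons above, so their values are not separate evidence. Scaling by library size alone moved the median of all genes in this comparison to -0.10. Against it Abcd2 stood at 1.37 and was the 1 gene of the 9 still called, where 683 of all 11968 genes were called in either direction.

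**Figure D3:**
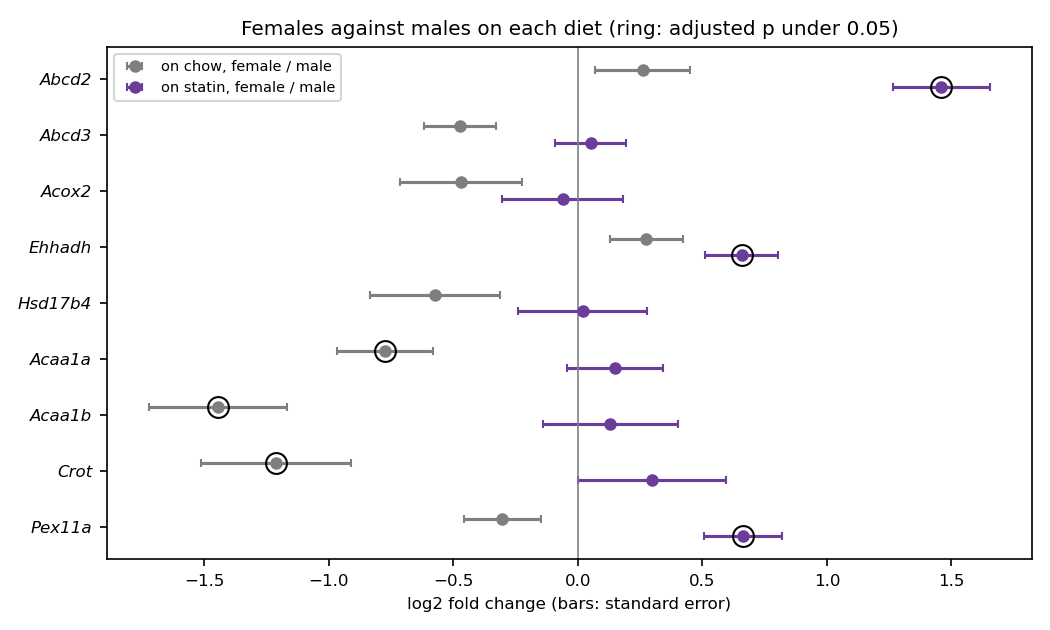
Log2 fold change of females over males (horizontal axis) for each of the 9 genes on chow (grey) and on statin (purple), with bars for the standard error and n = 3 livers per group. Rings mark the calls, which are Acaa1a, Acaa1b and Crot below 0 on chow and Abcd2, Ehhadh and Pex11a above 0 on statin.

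Across genes, levels were compared as CPM per kilobase of annotated exon, since longer transcripts yield more reads. Acaa1b was the highest and Abcd2 the lowest of the 9 in all 4 groups. In female chow livers Acaa1b stood at 125 ± 38.8 CPM per kilobase and overlapped with Ehhadh at 96.6 ± 13.5, and in the other 3 groups it did not overlap with the gene below it. It reached 258 ± 32.7 on statin in females, and 339 ± 71.5 on chow and 235 ± 85.8 on statin in males. Abcd2 stood at 9.53 ± 1.78, 17.9 ± 1.87, 7.96 ± 0.758 and 6.50 ± 1.72 CPM per kilobase in the 2 female groups (chow, then statin) and the 2 male groups in the same order. In female statin livers its range overlapped with that of Acox2.

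Ehhadh came next after Acaa1b in both female groups, and behind Hsd17b4, Abcd3 and, on chow, Crot in males. Hsd17b4, Abcd3 and Crot took the middle places, and several of these neighbours overlapped. In male chow livers Hsd17b4 averaged 110, Abcd3 103 ± 4.71 and Crot 95.2 ± 17.1 CPM per kilobase, without a gap between neighbours. Crot in female chow livers was at 41.1 ± 3.45, clear of Hsd17b4 above it (74.0 ± 17.1) and Acox2 below it (29.6 ± 7.30). Exon length was merged over all annotated transcripts of each gene. It came to 4414 bases for Acaa1a and 1962 for Acaa1b, and its effect on their places was not tested.

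Over the 12 livers, 28 of the 36 pairs among the 9 genes had a Pearson correlation of log2 levels above 0, with a median of 0.49 and a range from -0.39 to 0.95. These points share their groups, libraries and normalisation, so the correlations describe these livers and are not tested. With the mean standardised level of all 9 genes, which each gene is part of, Acaa1b had a correlation of 0.89, Abcd3 of 0.87, Crot of 0.82, Acaa1a of 0.81, Pex11a of 0.75 and Hsd17b4 of 0.71. Acox2 at 0.40, Abcd2 at 0.37 and Ehhadh at 0.31 followed the mean least. That mean was between -1.32 and -0.47 SD in females on chow and between 0.34 and 1.06 SD in females on statin. Males ranged from 0.21 to 0.58 SD on chow and from -0.40 to 0.32 SD on statin. The 5 genes outside the 9 whose pattern was nearest to it were Fcgrt (0.96), Wsb2 (0.95), Mgll (0.94), Rab7 (0.94) and Chrna2 (0.92).

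The same comparisons were read over 4 further lists. The closest held 19 other genes of peroxisomal acyl-CoA metabolism, all measured. None was called for statin in females or males. In females 14 of 19 had estimates above 0, with a median log2 fold change of 0.39, and 9 were higher at an unadjusted p under 0.05 (5.93% of all genes). The smallest p-values belonged to Crat, the carnitine acetyltransferase, which averaged 38.9 CPM on chow and 96.5 CPM on statin (log2 fold change 1.31, SE 0.27, edgeR adjusted p = 0.0968), Eci2, an enoyl-CoA isomerase (0.83, SE 0.17, adjusted p = 0.0968), and Decr2, a peroxisomal dienoyl-CoA reductase (0.75, SE 0.17, adjusted p = 0.110). In males the median was -0.09, and 1 gene, Crat, had an unadjusted p under 0.05 (log2 fold change -0.58, unadjusted p = 0.0490, adjusted p = 0.9998). Slc25a17, a peroxisomal cofactor carrier, came next in males at 0.30. The interaction of sex and statin was called for none of the 19. The differences were above 0 for 15 of 19 (median 0.40), and 7 of these had an unadjusted p under 0.05 (4.62% of all genes). Crat had the largest, 1.89 (SE 0.38, edgeR adjusted p = 0.202), larger than that of any of the 9. Slc27a2 was at 1.27.

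In this list, sex differences on chow were called for 6 of 19 genes, all lower in females (4.49% of all genes were). They were Slc27a2, a very long-chain acyl-CoA synthetase (-1.26), Scp2, whose longer product is a second thiolase (-1.25), Nudt7, a CoA diphosphatase (-1.22), Phyh, the first enzyme of phytanic acid breakdown (-1.17), Eci2 (-0.70) and Decr2 (-0.69). On statin 3 of them were called lower in females, Nudt7 (-2.06), Phyh (-0.96) and Scp2 (-0.88), where 227 of all 11968 genes were. Crat was called higher (1.28). Slc27a2 averaged 665 CPM on chow and 1294 CPM on statin in females, and 1598 and 1294 CPM in males. Nudt7 averaged 256 CPM on chow and 184 CPM on statin in females, without a call.

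The proteins that build and divide peroxisomes are the peroxins, and transcripts of 15 were measured beside Pex11a. In females 13 of 15 had estimates above 0, with a median of 0.15 and no call. The smallest p-values belonged to Pex26 (0.64, SE 0.21, edgeR adjusted p = 0.283) and Pex19 (0.34, adjusted p = 0.382), which serve import of matrix and membrane proteins. In males the median was -0.02 with no call. The interaction was not called either, and 1 of 15 had an unadjusted p under 0.05 (4.62% of all genes, counting differences above 0). Pex11g, a relative of Pex11a, was not called for statin, at 0.24 (SE 0.16) in females and -0.22 in males. On chow Pex11g was called lower in females (-0.60, adjusted p = 0.0308), the 1 sex difference called in this list on either diet (4.49% of all genes were called lower on chow).

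Of 16 other peroxisomal enzymes and membrane proteins 15 were measured, and none was called for statin. In females 13 of 15 had estimates above 0 (median 0.15). The smallest p-values belonged to Agxt, which detoxifies glyoxylate (0.57, SE 0.16, edgeR adjusted p = 0.202), the membrane protein Pxmp4 (0.27, adjusted p = 0.411) and Ephx2, the soluble epoxide hydrolase (0.50, adjusted p = 0.435). In males 11 of 15 were below 0 (median -0.09), with the smallest p-values for Agxt (-0.38) and Far1, a fatty acyl-CoA reductase of ether lipid synthesis (-0.27). The interaction was called for none, and 3 of 15 differences above 0 had an unadjusted p under 0.05 (4.62% of all genes). Agxt was at 0.95 (edgeR adjusted p = 0.277). On chow 5 were called lower in females (4.49% of all genes), Ephx2 (-1.22), Agxt (-0.77), Hao1, a glycolate oxidase (-0.75), Cat, the catalase that removes the hydrogen peroxide of the oxidases (-0.69), and Gstk1 (-0.50). Agps, of ether lipid synthesis, was called higher (0.43). On statin Far1 (0.71), Ddo (0.62) and Pxmp4 (0.49) were called higher in females (4.38% of all genes).

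Among 6 genes for PPAR receptors and their cofactors none was called in any of the 5 comparisons. Ppara averaged 178 CPM on chow and 238 CPM on statin in females (log2 fold change 0.42, SE 0.25, edgeR adjusted p = 0.660), and at 221 and 202 CPM in males. Pparg was at 7.90 and 10.6 CPM in females (0.42, SE 0.26) and at 9.38 and 6.07 CPM in males (-0.63, SE 0.26, adjusted p = 0.9998). The coactivator Ppargc1a was at 19.5 and 16.6 CPM in females and at 14.7 and 16.0 CPM in males.

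**Figure D4:**
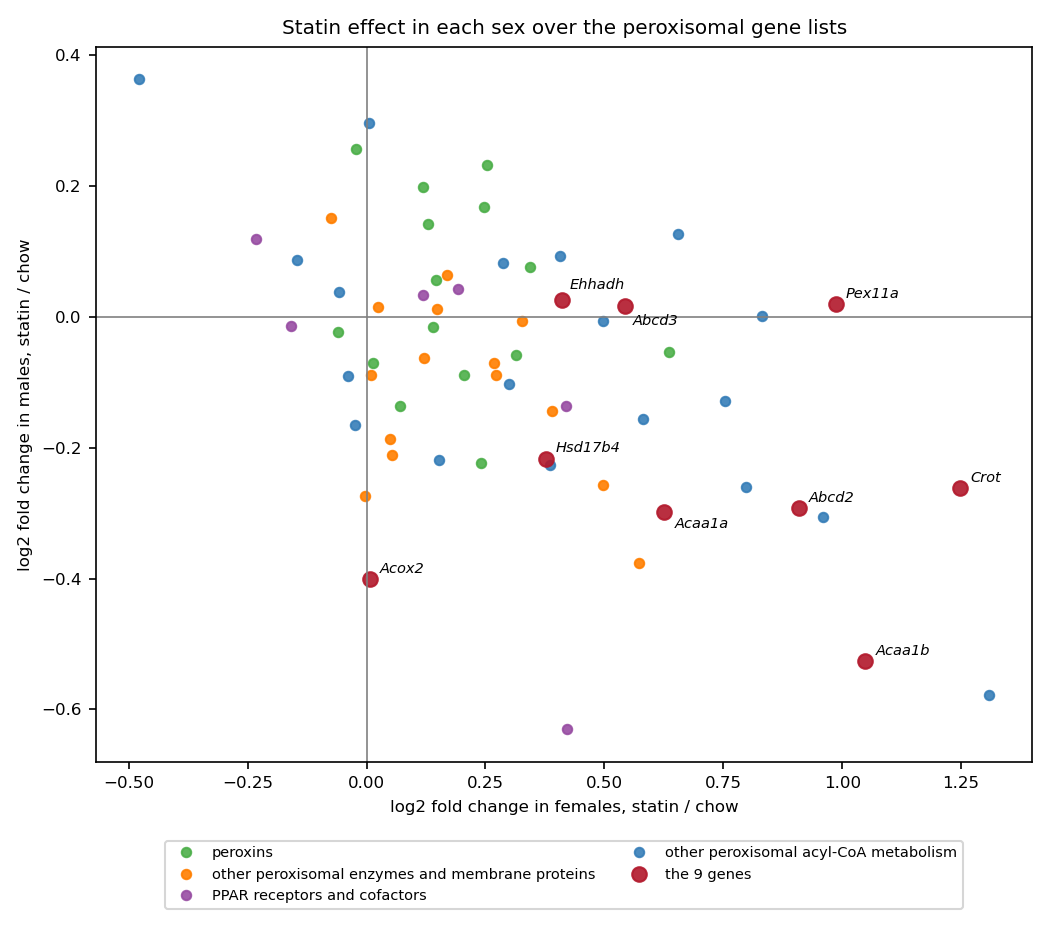
Log2 fold change of statin over chow in females (horizontal axis) and in males (vertical axis) for the 9 genes (large red points, named) and the genes of the 4 other lists, 1 point per gene. The 9 genes lie at or to the right of 0, with 6 of them below 0 in males, and Pex11a at 0.99 and 0.02.

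Other cell types and RNA quality were read beside the female comparison. Summed leukocyte markers ranged from 15.9 to 19.7 CPM on chow and from 22.2 to 28.2 CPM on statin, without overlap, with 1 of the 5 markers, Ptprc, past the filter. Summed hepatocyte markers were between 92250 and 119300 CPM on chow and between 113700 and 141400 CPM on statin, and overlapped, as did those of the other 4 cell types. Single hepatocyte markers differed in direction. Apoa1 was at 0.46 in females (edgeR adjusted p = 0.373) and at -0.62 in males (unadjusted p = 0.00445, adjusted p = 0.9998). Ass1 was at -0.42 in females and at 0.33 in males. Their interactions of sex and statin were 1.09 and -0.75, without a call. The 5 stellate cell markers all had estimates below 0 in females on statin (median log2 fold change -0.37). None of them was called, and 1, Des, had an unadjusted p under 0.05 (-0.48, unadjusted p = 0.0389, adjusted p = 0.441). The median log2 level of the genes with the greatest total exon length minus that of the genes with the smallest, which can fall when RNA is degraded, also overlapped. It ranged from 0.529 to 0.801 on chow and more widely, from 0.257 to 0.990, on statin. Markers of other cell types also differed by sex. Kupffer cell markers were called higher in females for 2 of 5 genes on chow and 4 of 5 on statin, where 713 and 524 of all 11968 genes were. On chow 2 of 5 stellate cell markers, Dcn and Lrat, and 1 of 5 endothelial cell markers, Clec4g, were called higher in females, and on statin the leukocyte marker Ptprc was. All 5 estimates of each of the Kupffer, stellate and endothelial lists were above 0 on both diets. Summed hepatocyte markers on statin ranged from 113700 to 141400 CPM in females and from 77710 to 85240 CPM in males, without overlap, with Alb at a log2 fold change of 0.85 (adjusted p = 0.0582). Apoa1 was at 0.28, Ttr at 0.12 and Ass1 at -0.25. On chow these sums overlapped between the sexes, and 1 of the 4 measured markers, Apoa1, was called lower in females (-0.81, adjusted p = 0.0136). The estimates of 3 of the 4 were above 0 there. They were Ass1 (0.50, unadjusted p = 0.0286 and adjusted p = 0.142 in edgeR, livers without overlap), Alb (0.27) and Ttr (0.05). The part of these values in the results on the 9 genes was not tested. Annotated genes overlap with all of the 9 but Abcd2 and Acox2, on the same strand for Abcd3, Hsd17b4 and Crot. The kit keeps strand, and the strand setting of the counting was not given in the sources used here.

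Promoter sequences, from 250 bases before to 50 after a start site (RefSeq, GRCm38.p6), were found for 7 of the 9 genes, with 9 start sites in all. They were searched on both strands for AGGTCA, the half-site bound by nuclear receptors, and for DR1, the direct repeat of that half-site with 1 base between, which PPARα and RXR bind, allowing 2 mismatches. None of the 9 promoters held the half-site, where 16.3% of 32841 promoters did. DR1 was matched in 1 of 9, at a start site of Acox2, where 3.86% of all promoters held it. A match describes the letters of this window only, and no match says only that these letters are not in it.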

How the data were processed

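RNA from 12 mouse livers was sequenced by the authors, with strand-specific libraries from poly(A) RNA. The submitters' processing notes name STAR 2.4.1a, HTSeq, edgeR 3.28.1 and GRCm38. The authors deposited raw counts per gene for 11968 genes in a table described as TMM-normalized, which were those over 1 CPM in 6 or more livers when checked, and CPM values of 48526 genes before the filter. Multiplied by library totals, 100% of the deposited CPM values were whole reads within 0.05. The total depth was 46066381 to 60419223 counts per liver.

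Counts were fitted with edgeR 4.0.16 (R 4.3.3): TMM factors, all 4 groups in 1 model, quasi-likelihood F tests and Benjamini-Hochberg adjustment over all genes in each of the 5 comparisons, which are statin against chow in each sex, their interaction, and females against males on each diet. The common dispersion was 0.038 with 4.14 prior degrees of freedom. Standard errors were the log2 fold change divided by the root of F, and 95% intervals used 12.1 degrees of freedom. The code was tested on simulated data. Alternatives were library size alone, DESeq2 size factors, DESeq2 1.42.0, no filter (26304 genes), a filter at 10 CPM, the 2 groups alone, replicate number as a block, and each liver left out. Gene symbols, positions and exon lengths came from GENCODE for GRCm38, and 99.84% of genes had a symbol. Coding sequences were aligned with Biopython 1.88.

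The 9 genes and all lists were chosen with earlier results of these data known. Named beside the 9 were, from each list, every gene called in any comparison, the 3 with the smallest p for statin in females and the 2 in males, and the 5 genes nearest to the mean pattern of the 9. Some genes that this rule names are not reported here. Protein sequences were not used here.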

Additional observations from a re-analysis of the deposited data

How the results depend on the processing

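The 9 genes were refitted under 19 settings, 7 of them changes of method and 12 that left out 1 liver. Of 846 values over the 5 comparisons, 756 kept their direction and their side of the threshold, 38 lost and 23 gained a call, and 29 turned sign.

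In females on statin, where 1 gene was called, the count was 0 with library size alone, a filter at 10 CPM, the 2 groups alone or the replicate block, 4 without the filter and 5 in DESeq2. It was between 0 and 3 with 1 liver left out. Calls over all genes went from 12 to 8 with library size alone, 270 in DESeq2, 148 without the filter, 2 at 10 CPM, 0 with the 2 groups alone, 5 with the block and between 0 and 75 with 1 liver left out. The interaction was called for 4 genes in DESeq2 (122 of all genes) and 3 without the filter (103 of all genes). It was called for 0 of the 9 with 1 liver left out, when 14 of all genes were called without female statin liver 2. In males DESeq2 called 4 of all genes. At an unadjusted p under 0.05 there was 1 of the 9 without the filter (630 of all 26304 genes). There were 2 with the 2 groups alone (360 of all 11968 genes), and between 0 and 2 with 1 liver left out. These were 2 without male statin liver 1 (703 of all genes) and 1 without male statin liver 3 (186 of all genes). With all livers, 234 of all genes had an unadjusted p under 0.05.

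Between the sexes on chow, calls ranged from 1 to 4 with 1 liver left out. All-gene calls went from 1250 to 2151 with the 2 groups alone, 1946 in DESeq2, 771 at 10 CPM and between 635 and 1586 with 1 liver left out. On statin, 1 gene was called with library size alone or with the 2 groups alone, and between 1 and 3 with 1 liver left out. At an unadjusted p under 0.05 there were between 3 and 5 of the 9 with 1 liver left out. The 5 came without female statin liver 2, when 2545 of all 11968 genes passed, against 2326 with all livers. All-gene calls on statin went from 751 to 683 with library size alone, 1284 in DESeq2, 356 at 10 CPM, 292 with the 2 groups alone and between 378 and 743 with 1 liver left out.

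The labels number the livers in each group, but these numbers do not pair them: livers of the same number had a mean correlation of deviations of -0.09 over 18 pairs, those of other numbers 0.05 over 36. With the replicate block Pex11a in females had an adjusted p of 0.155, Pex11a on statin between the sexes 0.0644, and all-gene calls were 901 on chow and 570 on statin between the sexes.

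Signs turned for estimates near 0, or where 1 liver carried the estimate. Acox2 in females went to -0.0017 with the 2 groups alone, -0.0007 in DESeq2, -0.0007 with DESeq2 size factors, -0.0035 without the filter and -0.0383 with library size alone. With 1 liver left out it ranged from -0.182 to 0.235, and was -0.161 without female chow 2, -0.0515 without female statin 2 and lowest without female statin 3. In males Abcd3 ranged from -0.0980 (without male statin 1) to 0.102, Ehhadh from -0.0100 (without male statin 1) to 0.0509, and Pex11a from -0.0983 (without male chow 3) to 0.144. Between the sexes on statin, Hsd17b4 went to -0.0770 with library size alone and -0.0121 without the filter, and ranged from -0.157 (without male statin 3) to 0.318 with 1 liver left out. Abcd3 went to -0.0332 with library size alone and ranged from -0.0328 (without male statin 2) to 0.167. Acox2 ranged from -0.260 to 0.157 (without female statin 1), Acaa1a from -0.0890 (without female statin 3) to 0.336, Acaa1b from -0.0456 (without male statin 2) to 0.467, and Crot from -0.169 (without female statin 3) to 0.584. The causes were not tested. The lowest value of any of the 9 genes in a liver was 29.7 CPM, where 3 counts came to at most 0.0651 CPM.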
